A study of Rattus norvegicus with 6 samples.

Results

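The interferon response and antigen presentation genes described here are 37 rat genes listed by symbol. They comprise 6 transcription factors of the interferon pathway, 22 interferon-stimulated genes, 4 genes of class I presentation and 5 genes of class II presentation. Probes were assigned to them through the transcript accession of each probe, and 36 of the 37 had a probe, among 26912 genes and features on the array. Ddx58, an RNA sensor, had none under this rule. Their signal was measured in livers of 6 male Wistar Hannover rats (RCCHan:WIST), which were bought at 4 weeks of age and quarantined for 1 week. For 7 days, 3 rats received pregnenolone-16α-carbonitrile (PCN) at 100 mg/kg/day in gavage, and 3 rats received the corn oil vehicle in the same way. PCN, a synthetic steroid, is a ligand of the pregnane X receptor of rodents, through which hepatocytes sense foreign compounds. Total liver RNA of each rat was labelled with Cy3 and hybridised to its own Agilent 1-colour array.

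Type I interferons signal through a receptor on the cell surface to Stat2 and Irf9, which act at the interferon-stimulated response element (ISRE) in promoters and turn on antiviral genes such as Isg15, Mx1 and the oligoadenylate synthetases. Interferon gamma acts mainly through the gamma-activated site (GAS) and induces Irf1, the chemokines Cxcl9 and Cxcl10 and, through Ciita, the class II genes. In liver, hepatocytes carry class I molecules, whereas class II molecules lie mainly on Kupffer cells, dendritic cells and B cells.

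Promoters of 6 members, at least 1 from each group, are shown because they carry the elements through which these groups are known to be induced. Each is the RefSeq sequence of 250 bases before to 50 bases after the gene start on GRCr8, read 5′ to 3′ on the strand of the gene, and 30 of the 37 members matched an entry by symbol (all but Ddx58, Isg15, Ifit1, Ifit2, Mx2, Usp18 and Ciita). Capitals mark the GAS match in Irf1, the ISRE matches in Irf7, Oas1a, Bst2 and Tap2, and the Y box match in RT1-Da.
Irf1 (chr10:38417685-38417984, plus strand): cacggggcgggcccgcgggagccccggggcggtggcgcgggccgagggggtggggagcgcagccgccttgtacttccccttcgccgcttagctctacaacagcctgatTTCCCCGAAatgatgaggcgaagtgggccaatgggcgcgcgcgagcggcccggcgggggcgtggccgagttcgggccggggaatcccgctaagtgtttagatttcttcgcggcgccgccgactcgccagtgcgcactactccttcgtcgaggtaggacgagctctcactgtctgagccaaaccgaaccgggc
Irf7 (chr1:205799974-205800273, minus strand): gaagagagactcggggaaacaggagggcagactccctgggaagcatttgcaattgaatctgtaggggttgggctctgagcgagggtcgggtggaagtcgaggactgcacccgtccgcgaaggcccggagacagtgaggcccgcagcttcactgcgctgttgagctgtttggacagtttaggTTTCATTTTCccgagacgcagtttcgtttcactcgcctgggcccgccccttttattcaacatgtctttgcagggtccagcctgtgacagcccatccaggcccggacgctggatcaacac
Oas1a (chr12:41330216-41330515, plus strand): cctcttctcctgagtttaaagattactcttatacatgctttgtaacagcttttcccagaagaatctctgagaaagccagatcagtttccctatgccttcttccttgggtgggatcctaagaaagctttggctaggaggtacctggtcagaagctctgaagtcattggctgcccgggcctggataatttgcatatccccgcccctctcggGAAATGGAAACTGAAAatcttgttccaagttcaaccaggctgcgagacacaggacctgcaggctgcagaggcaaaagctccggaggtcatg
Bst2 (chr16:18254918-18255217, minus strand): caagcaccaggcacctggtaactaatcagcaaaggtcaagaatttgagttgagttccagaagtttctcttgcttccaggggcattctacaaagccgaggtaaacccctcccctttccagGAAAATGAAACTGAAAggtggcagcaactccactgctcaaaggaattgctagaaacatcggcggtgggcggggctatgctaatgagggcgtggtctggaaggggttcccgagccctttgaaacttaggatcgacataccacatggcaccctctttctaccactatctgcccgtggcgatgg
Tap2 (chr20:4652247-4652546, minus strand): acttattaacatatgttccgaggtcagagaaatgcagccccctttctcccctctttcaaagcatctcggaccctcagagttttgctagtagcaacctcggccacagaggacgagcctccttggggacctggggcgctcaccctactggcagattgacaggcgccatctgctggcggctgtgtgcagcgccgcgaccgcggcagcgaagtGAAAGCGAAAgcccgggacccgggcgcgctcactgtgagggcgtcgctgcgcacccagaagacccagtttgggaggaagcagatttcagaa
RT1-Da (chr20:4515165-4515464, plus strand): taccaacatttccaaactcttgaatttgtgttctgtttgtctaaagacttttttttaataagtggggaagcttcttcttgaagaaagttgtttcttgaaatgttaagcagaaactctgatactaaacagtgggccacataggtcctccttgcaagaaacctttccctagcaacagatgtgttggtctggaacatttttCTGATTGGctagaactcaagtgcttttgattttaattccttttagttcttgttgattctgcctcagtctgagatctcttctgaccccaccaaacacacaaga

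The ISRE was searched as GAAA, any 2 bases and GAAA, or on the other strand TTTC, any 2 bases and TTTC, and it lay in 3.92% of 33469 rat promoters of this length. It lay in the promoters of 12 of the 16 interferon-stimulated genes that had an entry, 1 of 6 transcription factors, 4 of 4 class I genes and 0 of 4 class II genes. The GAS, TTCNNNGAA on either strand, lay in 8.87% of all promoters, in 4 of those 16 interferon-stimulated genes, and in Irf1, Irf8 and Irf9 among the transcription factors. The Y box, CTGATTGG or CCAATCAG, lay in 3.5% of all promoters and in RT1-Da, RT1-Ba and RT1-Bb among the 4 class II genes with an entry, and also in Cxcl9 and Irf8. In Oas1a the matches began 41 and 35 bases before the gene start and overlapped each other. The 2 matches in Bst2 also overlapped each other, and a GAS match overlapped the first of them. A match describes letters in the window and not a bound site.

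Levels are given below as log2 signal, the log2 of the processed signal of a probe over the 75th percentile of its array, so that 0 is the level of that percentile. A gene was tested where the scanner software had marked its probe as well above background on every array of 1 or both groups, and was called where the limma adjusted p, taken over all tested genes, was under 0.05. This gave 16389 tested genes, of which 716 were called higher and 2547 lower with PCN. Scaling to the array median in place of the 75th percentile gave 2686 higher and 1866 lower, and scaling to spike-in controls gave 169 and 4579. Arrays correlated over genes at 0.990 to 0.993 within PCN, 0.993 within control and 0.975 to 0.981 between groups. The PCN arrays lay on 1 slide with its own scan and the control arrays on another, and the effects of slide and of treatment cannot be told apart. All 6 hepatocyte markers were tested, and they summed to 1338 to 1739 times the 75th percentile on PCN arrays and to 1391 to 1510 times it on control arrays, with Hnf4a called higher and the other 5 not called.

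None of the 32 tested members passed the limma test with PCN, 0 higher and 0 lower, where 19.9% of all tested genes were called, 4.37% as higher and 15.5% as lower. At an unadjusted limma p under 0.05 there were 2 members, Oas1a and Irf1, which is 2 of 32 against 34.5% of all tested genes. The same 2 genes were the members whose arrays did not overlap between groups, Oas1a on the higher side and Irf1 on the lower, where 41.4% of all tested genes did not overlap, 14.7% on the higher side and 26.7% on the lower. The median log2 fold change was 0.01 over the 18 tested interferon-stimulated genes, 0.01 over the 6 transcription factors, 0.04 over the 4 class I genes and -0.14 over the 4 class II genes, beside -0.06 over all tested genes. Of the 32 members, 16 had a positive and 16 a negative log2 fold change. Under 19 other settings the count of called members lay between 0 and 3, and 6 of the 32 kept their sign in all of them. Over all genes these settings called between 1967 (of 26902) and 4748 (of 16389).

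**Figure D1:**
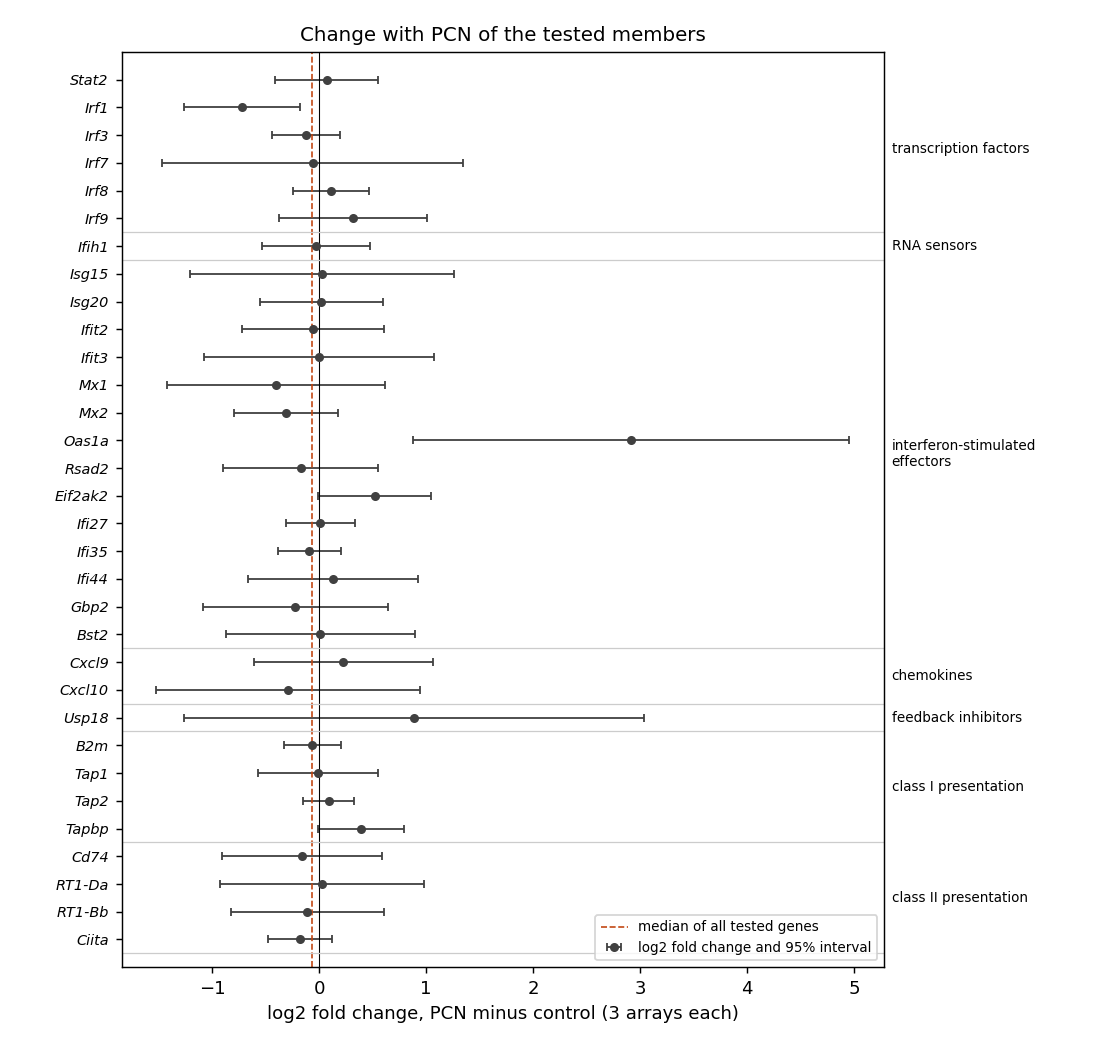
Log2 fold change, PCN minus control, of each tested member (points) with its 95% interval from limma (bars, 3 arrays per group), grouped by role. The dashed line marks the median of all tested genes at -0.06, and the intervals of Oas1a and Irf1 are the only ones that do not reach 0.

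Among the transcription factors, Irf1, an interferon gamma-induced factor with the GAS match shown above, had a log2 signal of 1.49, 1.86 and 1.00 on the PCN arrays, against 2.37, 1.97 and 2.16 on the control arrays. All 3 PCN arrays lay below all 3 control arrays. The difference was -0.72 ± 0.23 (SE, 3 arrays per group), with a 95% interval of -1.26 to -0.17 and a limma adjusted p of 0.0711. A dimmer probe of Irf1 read -4.27, -4.65 and -4.60 with PCN, against -3.56, -3.72 and -3.44 in control. In a fit over all tested probes, added after the data were seen, this probe passed the test at -0.94 ± 0.14 (limma adjusted p = 6.80e-03). Irf1 was called in 5 of 20 settings, 1 of which averaged its probes.

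Irf7, the factor that amplifies type I interferon induction and that carries an ISRE in the promoter above, read 0.82, 0.79 and -0.54 on PCN arrays and 1.46, 0.45 and -0.66 on control arrays. Array 3 was the lowest in both groups, and the groups overlapped along most of their range. The log2 fold change of Irf7 was -0.06 ± 0.59, with an interval of -1.47 to 1.35, so changes of more than 2-fold in either direction lie within it. Stat2, the partner of Irf9 in type I interferon signalling, read 2.97, 2.34 and 2.60 with PCN and 2.86, 2.41 and 2.42 in control. For Irf9, which binds the ISRE, the PCN arrays read -1.54, -1.59 and -2.31 and the control arrays -1.68, -2.12 and -2.58. Both genes overlapped between groups, with log2 fold changes of 0.07 ± 0.20 for Stat2 and 0.32 ± 0.29 for Irf9. Irf3, the constitutive factor that starts interferon transcription, read 3.06, 3.04 and 3.19 with PCN and 3.40, 2.99 and 3.26 in control. Irf8, a factor of myeloid cells, was dim, at -4.71, -4.99 and -4.79 with PCN and -4.71, -4.93 and -5.18 in control. Neither was called, at -0.12 ± 0.13 for Irf3 and 0.11 ± 0.15 for Irf8.

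Ifih1, the cytoplasmic sensor of long double-stranded RNA also called Mda5, read -3.21, -3.14 and -3.40 on PCN arrays and -2.83, -3.19 and -3.65 on control arrays. The PCN values lay inside the range of the control values, and the log2 fold change was -0.03 ± 0.21.

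Isg15, a ubiquitin-like protein attached to other proteins during the antiviral response, read 0.31, 0.15 and -0.49 on PCN arrays and 0.98, 0.06 and -1.15 on control arrays. The control arrays spanned more than the PCN arrays and enclosed them. The log2 fold change was 0.03 ± 0.52, with an interval of -1.21 to 1.26. Mx1, a dynamin-like GTPase that blocks viral replication, read -0.30, -0.44 and -1.13 with PCN and 0.66, -0.34 and -0.98 in control. Its paralog Mx2 read 4.77, 4.82 and 4.49 with PCN and 5.28, 4.57 and 5.14 in control. In both genes control 1 was the highest array and PCN 3 the lowest, and the groups overlapped, at -0.40 ± 0.43 for Mx1 and -0.31 ± 0.20 for Mx2.

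Ifi44, an interferon-induced gene used in many interferon signatures, read -0.37, -0.40 and -0.65 with PCN and 0.17, -0.74 and -1.23 in control. Ifit3, a tetratricopeptide-repeat protein of the antiviral response, read -4.18, -4.68 and -4.41 with PCN and -3.67, -4.10 and -5.51 in control. The PCN arrays of both genes lay inside the range of the control arrays, with log2 fold changes of 0.13 ± 0.33 for Ifi44 and 0.00 ± 0.45 for Ifit3. Bst2, or tetherin, which holds budding virus particles at the cell surface, read 3.53, 3.36 and 2.61 with PCN and 3.90, 2.69 and 2.89 in control. Control 1 was again the highest array and PCN 3 the lowest, and the log2 fold change was 0.01 ± 0.37. Rsad2, or viperin, an enzyme that makes a chain-terminating nucleotide, read -0.23, 0.81 and 0.09 with PCN and 0.44, 0.76 and -0.00 in control. Gbp2, a guanylate-binding protein induced by interferon gamma, read -0.57, 0.15 and -1.28 with PCN and -0.67, 0.01 and -0.36 in control. In these 2 genes array 2 was the highest in each group and the groups overlapped, at -0.17 ± 0.30 for Rsad2 and -0.22 ± 0.36 for Gbp2.

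Eif2ak2, or PKR, a kinase that stops translation on sensing double-stranded RNA, read -2.27, -2.76 and -2.55 with PCN and -3.01, -3.45 and -2.68 in control. PCN 2 lay below control 3, so the groups overlapped, and the log2 fold change was 0.52 ± 0.22 (interval -0.01 to 1.05, limma adjusted p = 0.151). Its dimmer probe gave the opposite sign, -0.33 ± 0.19, and did not pass either. The remaining tested effectors were Isg20, an exonuclease that degrades viral RNA, Ifit2, Ifi27 and Ifi35. Their log2 fold changes were 0.02 ± 0.24 for Isg20, -0.06 ± 0.28 for Ifit2, 0.01 ± 0.14 for Ifi27 and -0.09 ± 0.12 for Ifi35, and all 4 overlapped between groups. Ifi27, an interferon-induced mitochondrial protein, varied least of the interferon-stimulated genes apart from Ifi35, at 7.15, 7.16 and 6.94 with PCN and 7.29, 6.92 and 7.00 in control. Ifit1 and the feedback inhibitor Socs1, which acts on cytokine receptors, were not well above background on any array, and Oasl was so on 1 PCN array and 1 control array, so none of the 3 was tested.

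Oas1a, a synthetase of the 2′-5′ oligoadenylates that switch on RNA decay, read 0.98, 0.59 and -0.91 on PCN arrays, against -1.21, -2.44 and -4.44 on control arrays. All 3 PCN arrays lay above all 3 control arrays, with PCN 3 close above control 1. The log2 fold change was 2.92 ± 0.86, or 7.56-fold, with an interval of 0.88 to 4.96 and a limma adjusted p of 0.0566. It was positive under all settings, between 2.04 and 3.66, and was called in 6 of 20. Oas1a was the only interferon-stimulated member with a change of at least 2-fold.

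The other oligoadenylate synthetases were set beside it after its value was seen. Oas1k read 0.55, 0.23 and -1.17 on PCN arrays and -1.41, -2.55 and -3.95 on control arrays, and rose by 2.51 ± 0.70 (limma adjusted p = 0.0490). It was called in 13 of 20 settings. Oas1i read -0.06, -0.71 and -2.17 with PCN and -1.34, -2.70 and -4.05 in control, a difference of 1.72 ± 0.78 that did not pass (limma adjusted p = 0.171). In all 3 genes array 1 was the highest and array 3 the lowest in each group. Oas1e fell, at -4.52, -5.13 and -4.50 with PCN against -3.48, -3.29 and -3.70 in control (-1.22 ± 0.20, limma adjusted p = 8.87e-03). Oas1b, a family member known for flavivirus resistance in mouse, read 4.55, 4.45 and 4.66 with PCN and 4.61, 4.60 and 4.71 in control, with an interval of -0.33 to 0.16. Oas2 differed by -0.24 ± 0.13 and Oasl2 by -0.26 ± 0.28, neither called, while Oas1d, Oas1f, Oas1h and Oas3 were not well above background on any array. Oas2 was well above background on 2 PCN arrays and on 3 control arrays, so it passed the filter through the control group alone. The Oas1 genes are close copies of each other, and how far each probe also reads the other copies was not tested.

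**Figure D2:**
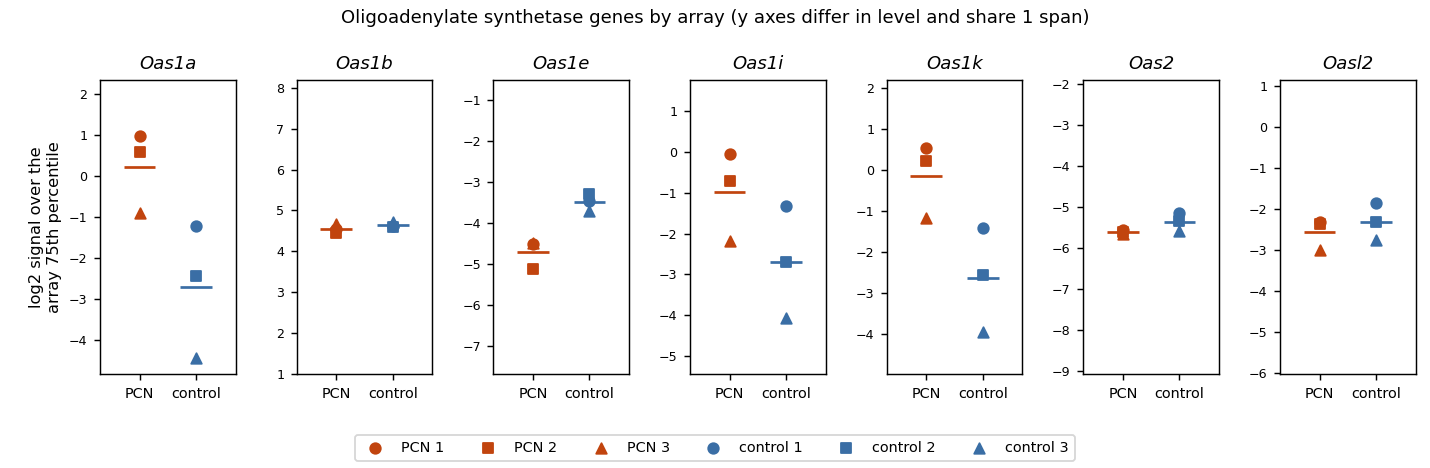
Log2 signal of 7 tested oligoadenylate synthetase genes on each array (points), PCN left of control, with group means (bars), on y axes that differ in level and share 1 span. Oas1a and Oas1k lie higher on all PCN arrays, Oas1i lies higher in the mean and overlaps, Oas1e lies lower on all PCN arrays, and Oas1b, Oas2 and Oasl2 overlap.

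Of the chemokines that draw T cells, Cxcl9 read -1.36, -0.95 and -2.0 with PCN and -2.08, -1.05 and -1.87 in control. Cxcl10 read -2.35, -0.50 and -2.44 with PCN and -1.20, -1.39 and -1.82 in control. PCN 2 was the highest of the 6 arrays in both genes, and the groups overlapped. The log2 fold changes were 0.23 ± 0.35 for Cxcl9 and -0.29 ± 0.52 for Cxcl10. Without PCN 2, Cxcl10 was at -0.93 and was called (limma adjusted p = 0.0357).

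Usp18 removes Isg15 from proteins and dampens the interferon receptor. It read -0.80, -1.85 and -3.27 on PCN arrays and -1.20, -2.98 and -4.39 on control arrays. In each group array 1 was the highest and array 3 the lowest, the order seen in Oas1a. The difference of 0.88 ± 0.90 had an interval of -1.27 to 3.04 (limma adjusted p = 0.538), and a dimmer probe gave 0.60 ± 0.69.

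The class I genes varied less as a group, though Tap1 and Tapbp varied more than B2m and Tap2. B2m, the light chain of all class I molecules, read 6.35, 6.26 and 6.05 on PCN arrays and 6.29, 6.26 and 6.29 on control arrays. Its log2 fold change was -0.06 ± 0.11, with an interval of -0.33 to 0.20. Tap2, a subunit of the peptide transporter into the endoplasmic reticulum, read 1.29, 1.27 and 1.19 with PCN and 1.27, 1.06 and 1.16 in control. The other subunit, Tap1, read -1.89, -2.73 and -2.42 with PCN and -2.08, -2.33 and -2.59 in control. Both overlapped between groups, at 0.09 ± 0.10 for Tap2 and -0.01 ± 0.24 for Tap1. Tapbp, or tapasin, which loads peptides onto class I molecules, read 0.78, 0.29 and 0.53 with PCN and -0.02, 0.39 and 0.08 in control. PCN 2 lay below control 2, and the difference of 0.39 ± 0.17 had an interval of -0.01 to 0.79 (limma adjusted p = 0.157). The median of the 4 genes, 0.04, became 0.24 under median scaling and -0.21 under spike-in scaling, settings under which the median of all tested genes was 0.14 and -0.31.

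Among the class II genes, Cd74, the invariant chain that guides class II molecules through the cell, read 2.91, 2.53 and 1.86 on PCN arrays and 2.15, 2.64 and 3.00 on control arrays. RT1-Da, a class II alpha chain, read 1.56, 1.15 and 0.29 with PCN and 0.42, 0.88 and 1.60 in control. Both genes had PCN 1 as the highest and PCN 3 as the lowest PCN array, and control 3 as the highest and control 1 as the lowest control array. The log2 fold changes were -0.16 ± 0.31 for Cd74 and 0.03 ± 0.40 for RT1-Da. RT1-Bb, a class II beta chain, read 1.65, 0.61 and 1.21 with PCN and 1.38, 1.57 and 0.85 in control (-0.11 ± 0.30). Its dimmer probe read 0.23, 0.43 and -0.44 with PCN and -0.37, -0.13 and 0.81 in control, so the 2 probes of RT1-Bb ordered the arrays differently. Ciita, the coactivator that controls class II transcription, read -4.00, -3.91 and -4.29 with PCN and -3.92, -3.83 and -3.91 in control (-0.18 ± 0.13). RT1-Ba was well above background on 0 PCN arrays and 1 control array and was not tested. In whole liver, fewer cells of a type and less RNA per cell cannot be told apart.

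**Figure D3:**
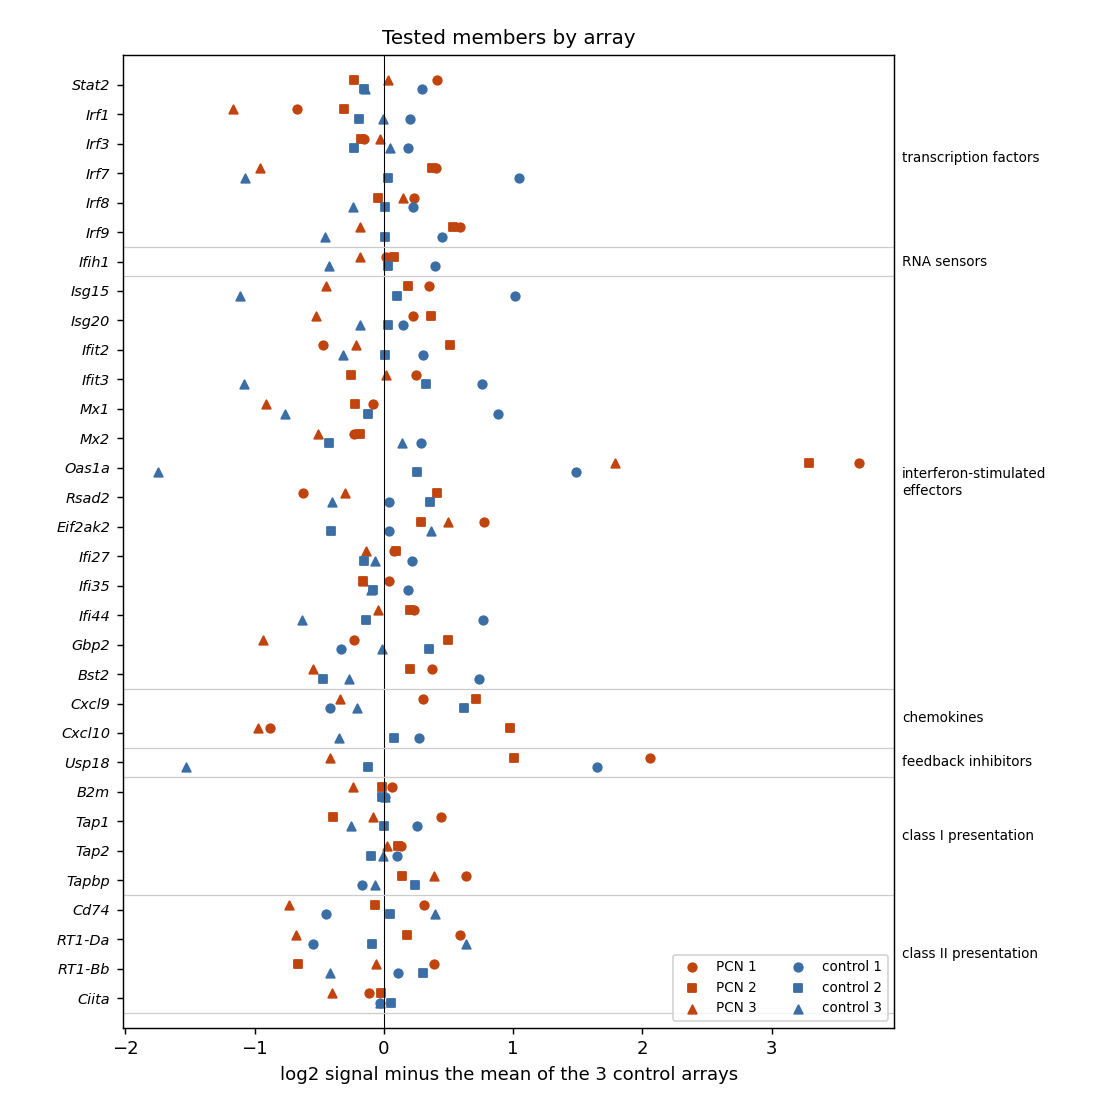
Log2 signal of each tested member on each array minus the mean of its 3 control arrays, with PCN arrays above control arrays in each row and 1 marker shape per replicate number. Only Oas1a and Irf1 have all PCN arrays on 1 side of all control arrays, and in the group medians the class I genes spread least.

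The arrays of a group differed from each other in a shared order across the interferon-stimulated genes. PCN 3 was the lowest PCN array in 14 of the 18 tested, 77.8%, where it was so in 28.2% of all tested genes. Control 1 was the highest control array in 14 of 18, 77.8% against 30.7% of all tested genes, and control 3 the lowest in 12 of 18, 66.7% against 32.7%. Both held together in 11 of 18 genes, 61.1% against 15.2%. The median deviation from the mean of the own group was 0.12, 0.17 and -0.34 on PCN arrays 1 to 3 and 0.30, 0.02 and -0.33 on control arrays 1 to 3, while over all tested genes it lay between -0.04 and 0.02. Control 1 was also the highest control array in 6 of 6 transcription factors.

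Cd74 and RT1-Da had the reverse order in control, with control 1 lowest and control 3 highest. Over the 4 class II genes control 1 was the lowest control array in 3, where it was so in 37.1% of all tested genes, and control 3 and control 2 were each the highest in 2. PCN 3 was the lowest PCN array in 3 of 4. Their median deviation was 0.49, 0.12 and -0.40 on PCN arrays 1 to 3 and -0.24, 0.05 and 0.19 on control arrays 1 to 3. The brighter probe of RT1-Bb had control 3 as its lowest control array, as most interferon-stimulated genes did. On its dimmer probe control 3 was the highest and control 1 the lowest control array. Control 1 and control 3 of Ciita differed little. These orders are a description of 6 arrays, and genes of 1 pathway are not independent of each other. PCN 3 and control 3 also had the lowest 75th percentile of their group (488 and 633) and the lowest share of spots well above background (61.6% and 65.5%), and the position of the arrays on a slide followed the replicate number in both groups. The part of these in the orders was not tested.

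**Figure D4:**
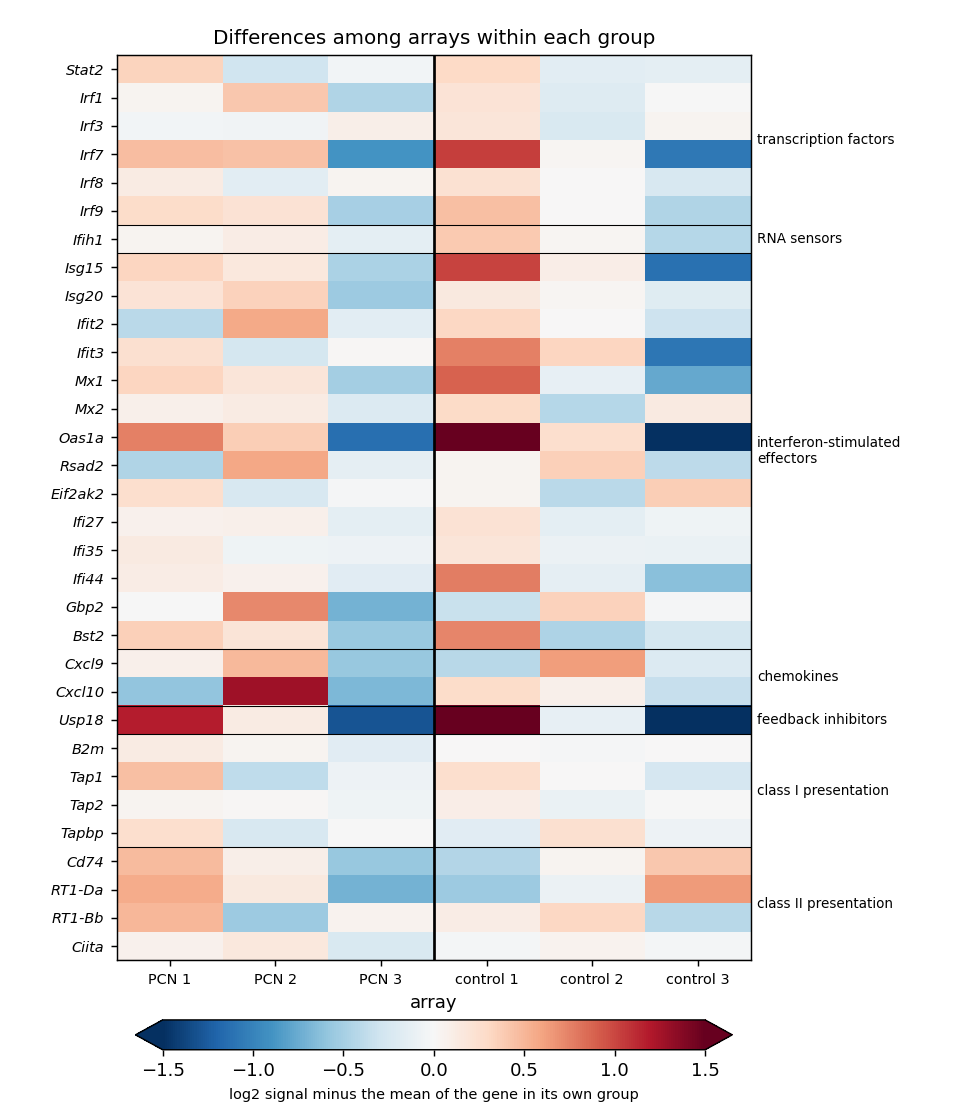
Log2 signal of each tested member minus the mean of that gene in its own group, on a colour scale from -1.5 (blue) to 1.5 (red). Control 1 is red and control 3 blue in most interferon-stimulated genes, PCN 3 is blue in most rows, and Cd74 and RT1-Da are blue in control 1 and red in control 3.

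This spread sets the width of the intervals above. The within-group SD, pooled over both groups, had a median of 0.526 over the interferon-stimulated genes, 0.468 over the class II genes, 0.313 over the transcription factors and 0.170 over the class I genes, beside 0.174 over all tested genes. It exceeded the 90th percentile of all tested genes, 0.412, in 12 of 18 interferon-stimulated genes, 3 of 4 class II genes, 2 of 6 transcription factors and 0 of 4 class I genes. The 4 class I members encode the shared light chain and the loading machinery, not the heavy chains.

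All genes with a symbol of the RT1 complex, the rat major histocompatibility complex, were set beside them after the values were seen. Taken by symbol, they include the class II members RT1-Da and RT1-Bb. Not all need encode a heavy or class II chain, since RT1-CE6 and RT1-T24-2 were matched through non-coding transcripts. Of 38 RT1 genes on the array, 30 were tested, with 0 called higher and 2 lower, where 4.37% of all tested genes were called higher and 15.5% lower. The 2 lower RT1 genes were RT1-CE11 (-1.21 ± 0.28, limma adjusted p = 0.0272) and RT1-N2 (-0.44 ± 0.10, limma adjusted p = 0.0220). The median within-group SD of the 30 genes was 0.518, and 24 of 30 exceeded the 90th percentile. RT1-CE10, a class I gene, read -5.38, -1.38 and -5.87 on PCN arrays and -0.82, -1.77 and -4.35 on control arrays, and had the highest within-group SD of the family, 2.17. This gene was well above background on 2 PCN arrays and on 3 control arrays, so it passed the filter through the control group alone. The same held for RT1-DOb and RT1-T24-2. RT1-A2 read 1.65, 2.44 and 4.02 with PCN and 4.48, 3.78 and 2.93 in control, and RT1-Db1 read 2.76, 2.08 and -0.31 with PCN and -0.03, 1.83 and 2.23 in control. RT1-A2 and RT1-Db1 ran in opposite order over the arrays of each group. Over the 30 genes, control 1 was the highest control array in 19, 63.3% against 30.7% of all tested genes. Control 3 was the lowest in 22, 73.3% against 32.7%. PCN 3 was the lowest PCN array in 9, 30% against 28.2%, and the highest in 12, 40% against 34.7%. RT1 genes are close copies of each other and differ between haplotypes, and how far a probe reads other copies or misses an allele was not tested.

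**Figure D5:**
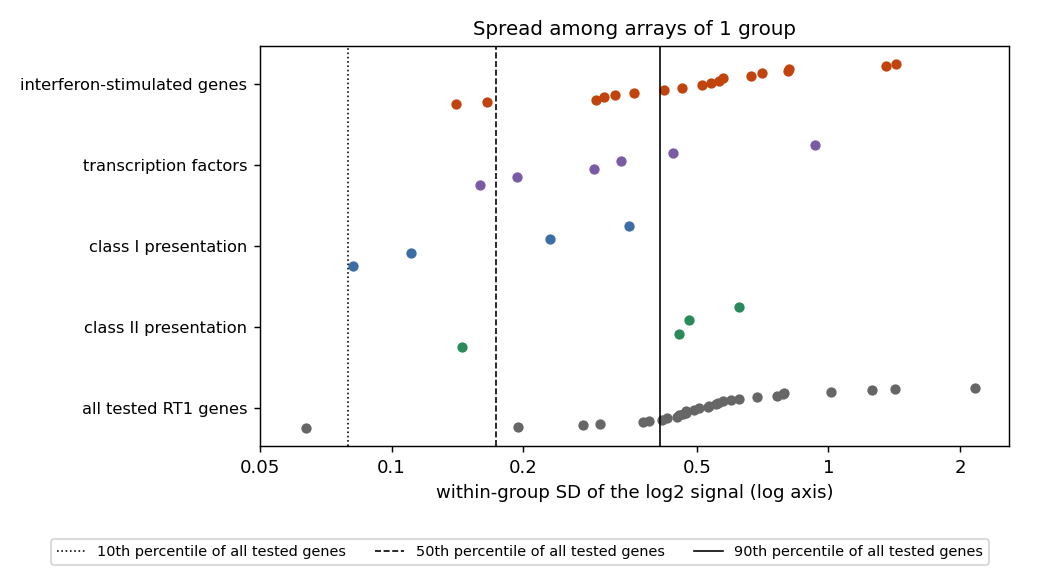
Within-group SD of the log2 signal (log axis) of each tested member by role and of the 30 tested RT1 genes, with lines at the 10th, 50th and 90th percentiles of all tested genes. The 4 class I members lie left of the 90th percentile, 0.412, whereas 12 of 18 interferon-stimulated genes and 24 of 30 RT1 genes lie right of it.

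Other genes of the pathway made 93 entries, after Sting1 and Tmem173, symbols of the same gene, were merged. Cgas and Mb21d1, which also name the same gene, stood as 2 entries, and 63 genes were tested. Of these, 2 were called higher and 2 lower with PCN, where 4.37% of all tested genes were called higher and 15.5% lower. The median log2 fold change of the 63 genes was -0.18, beside -0.06 over all tested genes. Ikbke, a kinase that activates Irf3 and Irf7, was higher, at -0.16, -0.09 and -0.18 on PCN arrays against -0.76, -0.88 and -0.90 on control arrays (0.70 ± 0.10, limma adjusted p = 4.51e-03). The other higher gene was Oas1k. Igtp, an interferon gamma-induced GTPase, was lower, at 5.40, 5.49 and 5.34 with PCN against 6.46, 6.34 and 6.26 in control (-0.95 ± 0.10, limma adjusted p = 2.20e-03). Its dimmer probe read 0.12, -0.46 and -1.03 with PCN and -0.32, -0.56 and -0.82 in control and did not pass, so the call rests on 1 of its 2 probes. Sp100, a nuclear body protein, was lower by 0.48 on the log2 scale (-0.48 ± 0.11, limma adjusted p = 0.0265), and it passed in 11 of 20 settings. By role, 1 of 8 tested genes of induction and sensing was higher, and 1 of 22 other interferon-stimulated genes was higher and 2 were lower. The 5 receptor and kinase genes, 17 other class I and immunoproteasome genes and 11 other class II genes held 0 called genes, with medians of -0.03, -0.28 and -0.29. Some of these genes, such as Cd80 (well above background on 1 PCN array and 3 control arrays), passed the filter through the control group alone.

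Markers of the leukocytes that carry class II molecules, and of other liver cells, were read beside these genes. Calls among them stand against 4.37% of all tested genes called higher and 15.5% called lower. All 10 Kupffer cell and macrophage markers were tested, and they summed to 36.0 to 47.7 times the 75th percentile on PCN arrays and 42.2 to 48.8 times it on control arrays. Cd14, the endotoxin co-receptor, rose by 1.31 ± 0.15, and the other 9 had negative log2 fold changes, with 0 called. The 3 of 8 dendritic cell markers that were tested summed to 0.237 to 0.361 with PCN and 0.301 to 0.385 in control. For B cells 2 of 6 markers were tested, at 0.0617 to 0.170 with PCN and 0.111 to 0.145 in control, while Ms4a1 and Cd79a matched no probe, and Blnk and Cd22 had a probe that did not pass the filter on background. T cell markers, 5 of 7 tested, summed to 0.418 to 0.520 with PCN and 0.581 to 0.743 in control, with Cd3d and Lck called lower. Lck was well above background on 1 PCN array and on 3 control arrays, so it passed the filter through the control group alone. The 3 of 5 NK cell markers that were tested summed to 0.585 to 0.883 with PCN and 0.638 to 0.729 in control, and the 4 pan-leukocyte markers to 5.93 to 8.20 and 7.76 to 8.33, with 0 called in either list. The 4 of 6 endothelial markers that were tested summed to 22.5 to 26.0 with PCN and 23.9 to 26.4 in control, with Cdh5 called lower. Ptprc, the leukocyte marker CD45, read -1.71, -1.60 and -2.36 with PCN and -1.98, -1.86 and -1.81 in control. Over 27 tested leukocyte markers, PCN 3 was the lowest PCN array in 24, 88.9% against 28.2% of all tested genes. It was so in Cd74 and RT1-Da, and also in 14 of 18 interferon-stimulated genes. Control 2 was the highest control array in 17 of the 27 markers, control 3 in 6 and control 1 in 4. In Cd74 and RT1-Da the highest control array was control 3. The part of these cells in the levels above was not tested.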

How the data were processed

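Livers of 3 PCN-treated and 3 control rats were measured on 1 array each. The labels call these biological replicates. Per the file headers, the deposited intensity values were extracted from the scans with version 10.7.3.1 of Agilent Feature Extraction. The processed signal used here is background-subtracted within the array, per the file headers, which also name other marks for each spot, such as well above background, saturated and outlier. The authors' other deposited values, set against the scanner values, proved to be a linear ratio, the processed signal over the array's 75th percentile, with no centring. Its column medians were 0.08 for PCN and 0.09 for control arrays. Values of 0 there, up to 23.7% of an array, were set to 0.01 before taking log2. No source used here says how the authors tested for changes.

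Control and outlier spots were left out, spots of a probe were averaged, and log2 signal was taken relative to the 75th percentile of non-control spots, in R 4.3.3 with the data.table package, version 1.17.8. A probe was tested if well above background on all 3 arrays of a group, and a gene was read from its brightest tested probe. Of 30367 probes, 18329 were tested, giving 16389 genes. More than 1 tested probe was available for 1785 genes, and in 6 of them the probes were called in opposite directions. Probe accessions were matched to RefSeq names of GRCr8, and 18004 probes matched 1 symbol. The files use build rn4, so no coordinates were taken from them. PCN was set against control by a linear model in limma 3.58.1 on the 6 arrays, with moderated variances from eBayes and a two-sided p adjusted over all 16389 genes by the Benjamini-Hochberg method. The model was first tested on simulated data with independent noise for each gene and array. These data held no slide effect and no array order shared among genes, so the test does not cover either. The number of arrays limits the precision.

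The members and the lists of other genes were chosen with earlier results of these data known. All 37 members are named, as are called genes of the other pathway lists and at most 2 markers per cell type. Other scalings, background corrections, filters, probe rules, variance models, a replicate block and fits without each array were run as alternatives. The normexp alternative (offset 50) was planned on mean signals and was run on median signals.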

Additional observations from a re-analysis of the deposited data

How the results depend on the processing

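The count of called members, 0 of 32, became 3 with median scaling (Eif2ak2, Oas1a and Tapbp: 2 interferon-stimulated genes and 1 class I gene). It became 2 (Irf1 and Oas1a, so 1 interferon-stimulated gene and 1 transcription factor) with spike-in scaling, normexp correction and a mean-variance trend, and 1 (Irf1) with the mean over probes. Of all 16389 tested genes, median scaling called 4552 and spike-in scaling 4748. Normexp correction called 2224 of them, the mean-variance trend 3452 and the mean over probes 3281. Leaving out 1 array at a time gave 0 to 2 members, 0 to 1 interferon-stimulated genes and 0 to 1 transcription factors: 2 without PCN 2 (Cxcl10 and Irf1) and 1 without control 1 (Oas1a). Over all genes, 2514 of 16436 were called without PCN 2 and 2039 of 16461 without control 1. The class I median moved to 0.24 with median scaling and -0.21 with spike-in scaling, where the median of all tested genes was 0.14 and -0.31. The cause of these differences was not tested. Quantile normalization, cyclic loess, the deposited table, the other percentile, both other filters and kept outlier spots called 0 members, and the class II genes had 0 calls in every setting run.

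The replicate block called 1 member, Oas1a (limma adjusted p = 0.0112), and 1 interferon-stimulated gene. The labels give no pairing of the samples. Over all tested genes, same-numbered arrays correlated in their deviations at -0.10, -0.03 and -0.05, and none correlated best with its own number. Control 3 and PCN 3 were both the lowest of their group in 9 of 18 interferon-stimulated genes, 50% against 9.87% of all tested genes. Taken alone, PCN 3 was the lowest PCN array in 14 of these 18 genes and control 3 the lowest control array in 12. Counts of that size overlap in many genes without any link between same-numbered arrays, so the overlap cannot show such a link. Whether a part of the genes shares an effect of the replicate number was not tested.

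Over all tested genes 3263 were called. Without control 1, 2 or 3 there were 2039, 2103 and 2064, with the block 2067, and with no filter on dim probes 1967 of 26902. Igtp turned to 0.11 with its dimmer probe (limma adjusted p = 0.835), a reading added after the data were seen. With 3 arrays a group, the intervals of several members, for example Irf7, Isg15, Cxcl10 and Usp18, hold changes beyond 2-fold in 1 or both directions.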
